A study of Mus musculus with 16 samples.

Results

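Mitochondrial protein import and the proteases and chaperones of the matrix were followed through 36 genes in mouse acute myeloid leukemia cells. The 36 genes were taken by symbol, not by value, from a deposited table of 53801 genes, and all 36 were among the 13774 genes with enough counts to be tested. They were grouped as 10 outer membrane genes, 6 small Tim proteins, 8 inner membrane genes, 6 genes of the import motor, and 6 processing peptidases, proteases and a matrix chaperone. All groups grew from an MLL-AF9 leukemia line, transformed by a fusion of the MLL and AF9 genes, in RPMI medium with serum, interleukin 3 and stem cell factor, and in all of them Cas9 had been induced with 4-hydroxytamoxifen (4-OHT). The MCT4-KO groups carried a knockout of MCT4, the lactate and proton exporter encoded by Slc16a3, and the control groups carried a guide RNA that targets nothing. Each genotype was cultured at 2% and at 20% oxygen, which gave 4 groups of 4 libraries: MCT4-KO at 2%, control at 2%, MCT4-KO at 20% and control at 20% oxygen. Polyadenylated RNA was sequenced. The sources used here give neither the number of guides or clones nor the time at 2% oxygen. Whether the replicates were grown apart is not stated, so a p-value reflects only how far these libraries spread, and that spread may be technical.

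Nearly all mitochondrial proteins are made in the cytosol. They cross the outer membrane through the TOM complex, with receptors that bind the precursors and a channel formed by Tomm40. Precursors with a presequence pass the TIM23 complex of the inner membrane, are pulled into the matrix by a motor built around the chaperone mortalin (Hspa9), and lose the presequence to a processing peptidase. Carrier proteins are escorted by small Tim proteins to the TIM22 complex instead, and the proteases Lonp1 and ClpXP remove misfolded matrix proteins.

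Libraries held 21192179 to 28871459 estimated counts. Levels are given as CPM (counts scaled to a common depth, with TMM factors), and changes as log2 ratios of group levels, each with its SE from edgeR (n = 4 libraries in each group). The words rose and fell are used where edgeR's p, adjusted over the 13774 genes, was under 0.05, and every adjusted p is edgeR's unless another test is named. Slc16a3 averaged 365 ± 5.83 CPM in MCT4-KO and 812 ± 23.4 CPM in control cells at 2% oxygen, and 79.9 ± 11.1 CPM in MCT4-KO and 209.9 ± 23.0 CPM in control cells at 20% oxygen (SD, n = 4 each), so transcript of the targeted gene remained in the MCT4-KO libraries. The 10 myeloid markers summed to 5644 to 6072 CPM at 2% and 2853 to 3153 CPM at 20% oxygen. Elane alone spanned 647 to 3876 CPM over the 16 libraries, while Ptprc stayed at 222 to 273 CPM, Cebpa at 487 to 596 CPM and Csf1r at 0.302 to 1.53 CPM. The summed T cell, B cell and endothelial markers did not pass 0.0943 CPM in any library. The 4 erythroid markers summed to 1.81 to 2.45 CPM in MCT4-KO and 1.99 to 3.21 CPM in control cells at 2% oxygen, and to 1.17 to 2.00 CPM in MCT4-KO and 1.496 to 1.83 CPM in control cells at 20%. The 3 stromal markers summed to 0.950 to 1.61 CPM in MCT4-KO and 1.86 to 2.26 CPM in control cells at 2% oxygen, and to 0.869 to 1.36 CPM in MCT4-KO and 1.29 to 1.43 CPM in control cells at 20%. Counts of the mitochondrial genome made up 0.379% ± 0.036 in MCT4-KO and 0.298% ± 0.044 in control cells at 2% oxygen, and 0.720% ± 0.067 in MCT4-KO and 0.750% ± 0.18 in control cells at 20% oxygen (SD, n = 4 each). The part of these shifts in the results was not tested. The labels name no batch. In control cells at 2% oxygen replicate 4 stood apart: the chi-square per gene between its counts and those of the other 3 libraries was 8.33 to 12.4, against 2.52 to 3.31 among those 3. That library was the highest of its group for 29 of the 36 genes, against 33.7% of all tested genes. Counts of calls over the 36 genes, and values of some genes, are therefore also given without it. At 20% oxygen the chi-square per gene between libraries of a group was 3.47 to 8.95 in control and 2.47 to 7.48 in MCT4-KO cells. Within MCT4-KO cells at 2% oxygen it was 1.76 to 2.77. In bulk RNA, fewer cells with a transcript and less transcript per cell cannot be told apart.

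Per kilobase of merged exons, a scale on which genes can be compared, mortalin led the 36 genes in 3 of the 4 groups. It stood at 172 CPM per kilobase in MCT4-KO and 135 in control cells at 2% oxygen, and at 297 in MCT4-KO and 314 in control cells at 20% oxygen. It took 12.8% of the sum over the 36 genes in MCT4-KO and 10.6% in control cells at 2% oxygen, and 22.7% in MCT4-KO and 23.4% in control cells at 20% oxygen. Tomm6, a small subunit of the TOM complex, was second to Hspa9 in MCT4-KO cells at 2% oxygen (159 CPM per kilobase), first in control cells at 2% oxygen (159.8), and at rank 5 at 20% oxygen in MCT4-KO (66.2) and control cells (63.6). The lowest levels per kilobase belonged to Timm9 at 2% oxygen, 2.72 in MCT4-KO and 2.64 in control cells, and to Pam16 at 20% oxygen, 3.14 in MCT4-KO and 3.28 in control cells. Grpel2 was the neighbour of Timm9 at 2% oxygen, with 2.76 in MCT4-KO and 2.89 in control cells. Isoforms that use part of the merged exons make these values approximate. Pam16 was counted here without its near-identical copy Gm9803, which held 67.9% of the counts of both, so its rank is uncertain.

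**Figure D1:**
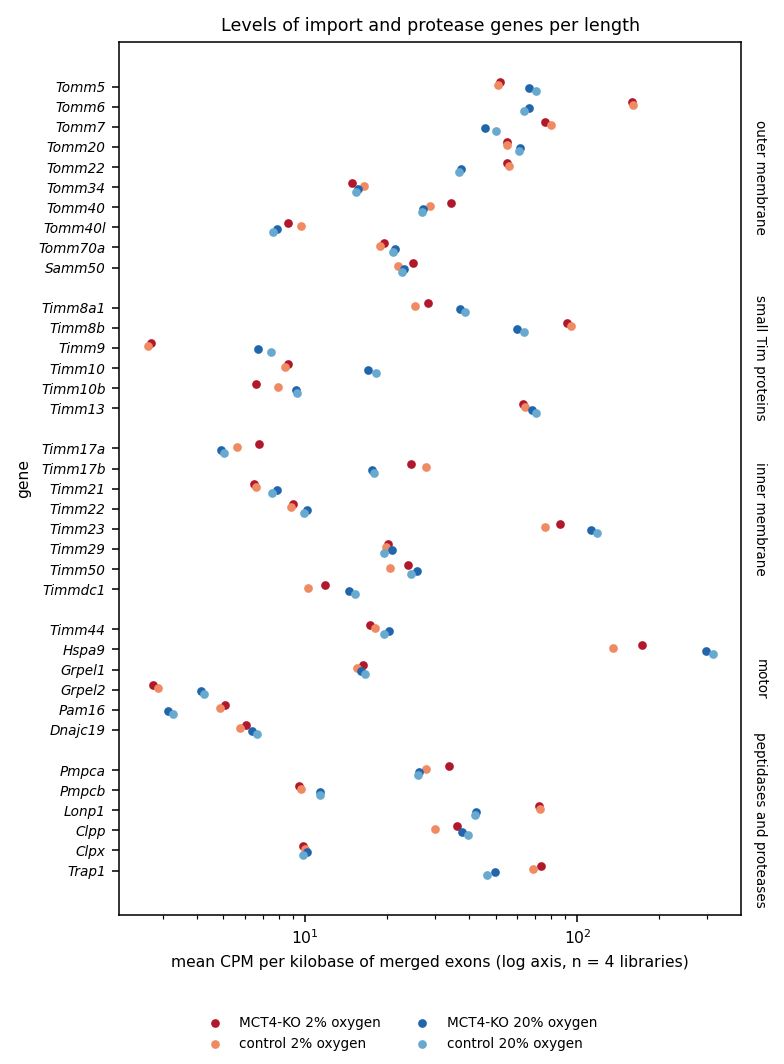
Mean level of each of the 36 genes in CPM per kilobase of merged exons (log axis), by role and by group, n = 4 libraries per group. Hspa9 is the highest gene at 20% oxygen, and at 2% oxygen Tomm6 reaches 159 in MCT4-KO and 159.8 in control cells.

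Low oxygen moved most of the 36 genes, in both directions. In MCT4-KO cells 29 of 36 changed at 2% against 20% oxygen (80.6%), against 76.4% of all tested genes. Of these 13 rose and 16 fell, against 37.7% and 38.7% of all tested genes. In control cells 30 of 36 changed (83.3%), against 78.3% of all tested genes, and 12 rose and 18 fell, against 38.7% and 39.6%. The 4 and 4 libraries did not overlap for 27 genes in MCT4-KO cells (72.4% of all tested genes) and for 26 in control cells (70.2%). These shares were near the background, and the median change was -0.07 in MCT4-KO and -0.12 in control cells, against -0.01 and -0.02 over all tested genes. In both genotypes 12 genes rose and 16 fell. Without control 2% replicate 4 the counts in control cells were 11 and 20. In that fit 10691 of all tested genes were called, in place of 10790. Samm50 rose in MCT4-KO cells with TMM (0.10 ± 0.037, adjusted p = 0.0171), turned to -0.076 with library size scaling, and was not called in control cells (-0.05 ± 0.037, adjusted p = 0.258). With TMM, Clpp and Dnajc19 fell in control cells and were not called in MCT4-KO cells, and Clpx, Grpel1, Timm13, Timm29 and Tomm34 were called in neither. With library size scaling all of these were called lower in MCT4-KO cells. The values were Clpp -0.23, Dnajc19 -0.25, Clpx -0.22, Grpel1 -0.15, Timm13 -0.29, Timm29 -0.22 and Tomm34 -0.25. TMM factors were 0.912 to 0.953 at 2% and 1.06 to 1.08 at 20% oxygen. Scaling by library size alone moved the median of all genes in the oxygen comparisons to -0.19 in MCT4-KO and -0.22 in control cells, and all changes given are relative to the TMM centre. Of all genes called, the share that was higher at 2% oxygen was then 35.4% in MCT4-KO and 35.2% in control cells, against 49.3% and 49.4% with TMM.

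**Figure D2:**
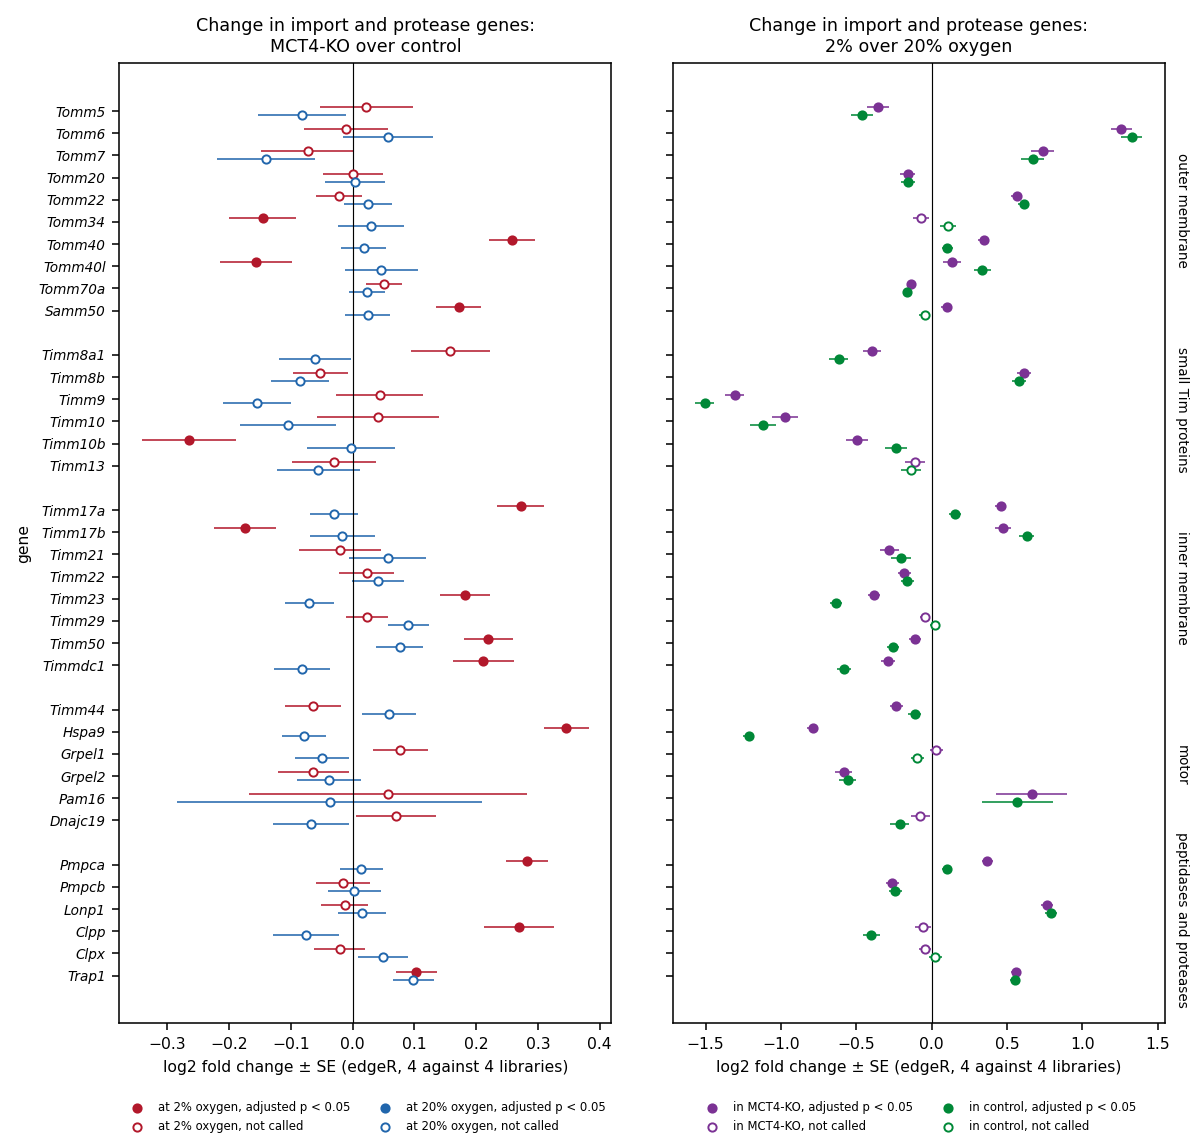
Log2 fold change ± SE of each of the 36 genes, by role, for MCT4-KO over control at 2% and 20% oxygen and for 2% over 20% oxygen in MCT4-KO and control cells, n = 4 libraries per group; filled points have an edgeR adjusted p under 0.05. Filled points of the knockout comparison are all at 2% oxygen, and the oxygen changes reach 1.33 for Tomm6 and -1.51 for Timm9 in control cells with TMM scaling.

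With MCT4 knocked out, the share of the 36 genes that changed at 2% oxygen was close to that of all genes, and the largest rise was that of Hspa9. At 2% oxygen 10 of 36 rose and 4 fell, 14 in all (38.9%), against 38.4% of all tested genes changed, 19.4% higher and 19.1% lower. The libraries did not overlap for 13 of the 36, against 37.0% of all tested genes, so these shares too were near the background. The 10 that rose were Hspa9, Pmpca, Timm17a, Clpp, Tomm40, Timm50, Timmdc1, Timm23, Samm50 and Trap1, and the 4 that fell were Timm10b, Timm17b, Tomm40l and Tomm34. The median change was 0.02, against 0.00 over all tested genes. Without control 2% replicate 4, 11 of the 36 rose and 2 fell, and 5099 of all tested genes were called, in place of 5295. With library size scaling 13 rose and 2 fell, and the share of all called genes that was higher in MCT4-KO cells was 63.1%, against 50.4% with TMM. At 20% oxygen edgeR called 0 of 36 genes, against 9.76% of all tested genes (4.96% higher and 4.80% lower), and the libraries did not overlap for 1 gene, Timm29, against 14.6%. At an unadjusted p under 0.05, 3248 of all tested genes passed there, and DESeq2 called 1 of the 36, Trap1. The largest value at 20% oxygen was that of Timm9, -0.15 ± 0.055, adjusted p = 0.0817. Timm9 lies on chromosome 12, where the 523 tested genes had a median knockout change of -0.11 at 20% and -0.08 at 2% oxygen. Over all tested genes the medians were -0.01 and 0.00. At 2% oxygen Timm9 itself averaged 11.6 CPM in MCT4-KO and 11.3 CPM in control cells and was not called. Timm9 was called at 20% oxygen without control replicate 4 (-0.20, adjusted p = 0.0275), and Trap1 without MCT4-KO replicate 1 (0.12, adjusted p = 0.0297). Without MCT4-KO replicate 2 the number of all genes called at 20% oxygen was 895 in place of 1344.

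The call at 2% oxygen and its absence at 20% do not by themselves show a difference, so the knockout effect at 2% minus that at 20% oxygen was tested as an interaction. It was above 0 for 8 of 36 genes and below 0 for 0, against 22.9% of all tested genes called, 11.6% above and 11.3% below. The share of the 36 genes called, 22.2%, was near that background. The 8 were Hspa9 (0.42 ± 0.051), Clpp (0.35 ± 0.078), Timm17a (0.30 ± 0.055), Timmdc1 (0.29 ± 0.067), Pmpca (0.27 ± 0.048), Timm23 (0.25 ± 0.056), Tomm40 (0.24 ± 0.052) and Samm50 (0.15 ± 0.052), with edgeR adjusted p between 1.63e-05 for Hspa9 and 0.0468 for Samm50. Samm50 lost the call in 13 of the 16 fits that left out 1 library. Without control 2% replicate 4 the count was 10 above and 0 below, while 3339 of all tested genes were called, in place of 3155. The count below 0 was 2 without control 20% replicate 1, and 1 without control 20% replicate 3, MCT4-KO 20% replicate 1 or control 2% replicate 1. For the 2 knockout-raised genes Timm50 and Trap1 the interaction was 0.14 ± 0.055, adjusted p = 0.0644, and 0.01 ± 0.047, adjusted p = 0.952.

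The 10 outer membrane genes split by oxygen. In MCT4-KO cells 6 rose and 3 fell, against 37.7% and 38.7% of all tested genes. In control cells 5 rose and 3 fell, against 38.7% and 39.6%. Tomm6 (ENSMUSG00000033475, chr17:47686646-47688386, GRCm38) made the largest rise, with 183, 176, 180.0 and 179 CPM in MCT4-KO cells at 2% oxygen, against 68.1, 76.4, 77.5 and 77.6 CPM at 20%. In control cells it had 166, 172, 167 and 219 CPM at 2% and 74.6, 77.3, 66.5 and 69.6 CPM at 20% oxygen. All 8 libraries at 2% oxygen lay above all 8 at 20%, by 1.26 ± 0.071, adjusted p = 1.46e-12, in MCT4-KO and 1.33 ± 0.072, adjusted p = 5.61e-13, in control cells, and control replicate 4 was the highest of all. Tomm6 shares 859 exon bases on the same strand with the predicted gene Gm21981, whose mean was 1.06 to 4.04 CPM, and with those counts added the changes were 1.26 in MCT4-KO and 1.34 in control cells. Tomm7, another small TOM subunit, rose by 0.74 ± 0.078 in MCT4-KO and 0.67 ± 0.077 in control cells, and Tomm22, the central receptor that docks Tomm20, by 0.56 ± 0.038 and 0.61 ± 0.039. Tomm5, the third small subunit measured, went the other way and fell (-0.36 ± 0.073 in MCT4-KO and -0.46 ± 0.073 in control cells). The receptors Tomm20, which recognises presequences, and Tomm70a, which receives carrier precursors from cytosolic chaperones, fell less, with changes of -0.16 and -0.13 in MCT4-KO cells and -0.16 and -0.16 in control cells. The 4 pseudogenes that match Tomm20 held 3.47% of the counts of gene and copies together.

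Tomm40 (ENSMUSG00000002984, chr7:19701313-19715438, GRCm38), the channel of the TOM complex, was the outer membrane gene with the largest knockout change at 2% oxygen. It had 161, 154, 153 and 153 CPM in MCT4-KO cells at 2% oxygen, against 122, 130.0, 126 and 141 CPM in control cells. All MCT4-KO libraries lay above all control libraries, by 0.26 ± 0.037, adjusted p = 1.68e-05, and by 0.30 without control replicate 4. At 20% oxygen it had 119.9, 121, 123 and 124 CPM in MCT4-KO and 118, 122, 121 and 122 CPM in control cells, with a change of 0.02 ± 0.037. Its rise with low oxygen was 0.34 ± 0.036 in MCT4-KO and 0.10 ± 0.037 in control cells, with TMM. The value in control cells lost its call without control 2% replicate 4 (0.06, adjusted p = 0.0805) and turned to -0.10 with library size scaling. Samm50, the core of the machinery that inserts beta-barrel proteins such as Tomm40 into the outer membrane, had 162, 164, 162 and 162 CPM in MCT4-KO cells at 2% oxygen, against 138, 144, 143 and 153 CPM in control cells. These groups too did not overlap, and the rise was 0.17 ± 0.037, adjusted p = 0.00103. Tomm40l, a relative of Tomm40, had 46.0, 42.6, 44.3 and 44.4 CPM in MCT4-KO and 48.4, 46.4, 47.7 and 55.1 CPM in control cells at 2% oxygen, so that every MCT4-KO library lay below every control library, and it fell (-0.16 ± 0.058, adjusted p = 0.0395). Its rise with low oxygen in MCT4-KO cells (0.13 ± 0.058, adjusted p = 0.0427) was lost without MCT4-KO 20% replicate 1 or 2 or MCT4-KO 2% replicate 1, 3 or 4 (adjusted p = 0.0696 to 0.127), and turned to -0.043 with library size scaling. Tomm34, a cytosolic partner of the Hsp70 and Hsp90 chaperones, fell (-0.15 ± 0.054, adjusted p = 0.0402). Without control 2% replicate 4 Tomm40l stood at -0.10 (adjusted p = 0.160) and Tomm34 at -0.15 (adjusted p = 0.0572), and 2 of the 36 genes then remained called lower. The count called lower was also 2 without MCT4-KO 2% replicate 2, 3 or 4. Tomm34 also lost its call without control 2% replicate 2 and without each MCT4-KO 2% replicate (adjusted p = 0.0627 to 0.160). Library size scaling ended the calls of Tomm34 (adjusted p = 0.125) and Tomm40l (0.113), and the replicate block that of Tomm34 (0.0518). Tomm40l shares 3304 exon bases with Nr1i3 on the opposite strand, but Nr1i3 was near 0 in all groups (highest mean 0.110 CPM).

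**Figure D3:**
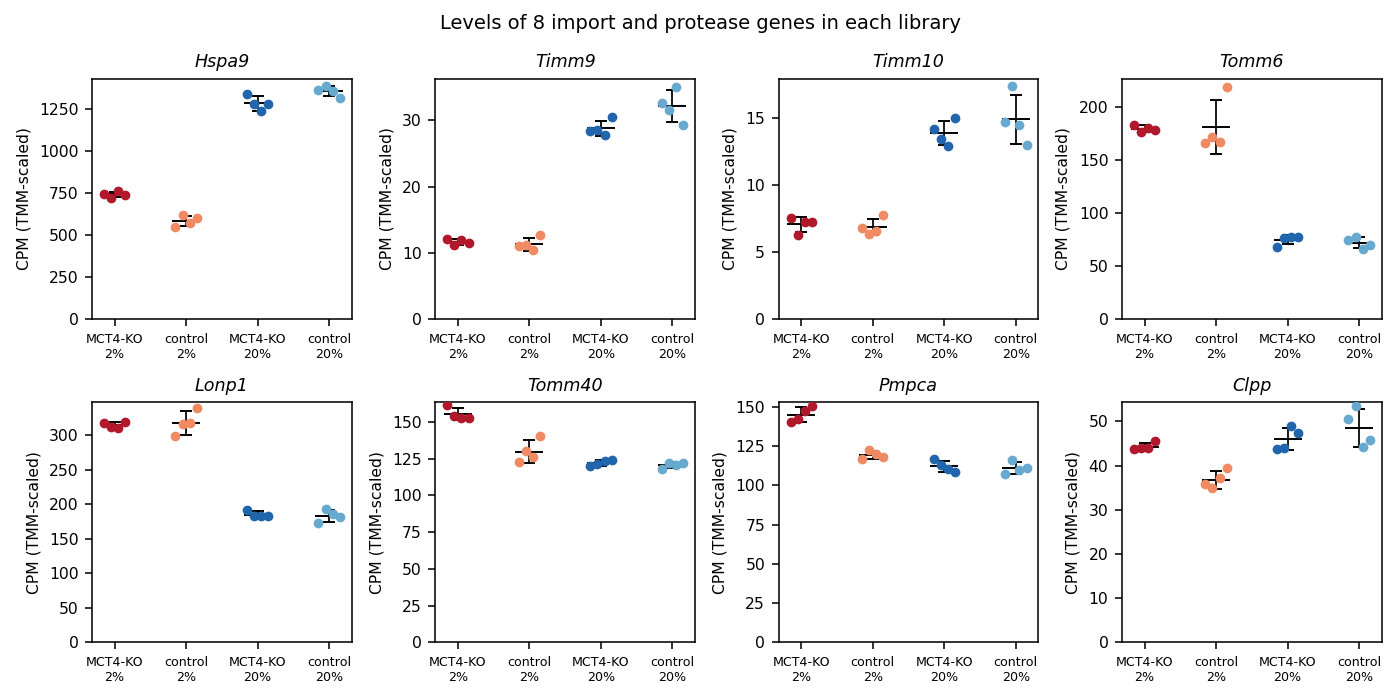
TMM-scaled CPM of 8 genes in each library (points), with the group mean and SD (line and bars), n = 4 per group. At 2% oxygen the MCT4-KO libraries of Hspa9, Tomm40, Pmpca and Clpp all lie above the control libraries, while Timm9, Timm10, Tomm6 and Lonp1 separate by oxygen, with overlapping genotypes at each oxygen level.

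Among the 6 small Tim proteins 1 rose and 4 fell with low oxygen in each genotype. The shares of all tested genes were 37.7% and 38.7% in MCT4-KO cells, and 38.7% and 39.6% in control cells. Timm9 of this group had the largest fall of the 36 genes in both genotypes. Timm9 and Timm10 build the hexamer that carries hydrophobic precursors across the intermembrane space. Timm9 (ENSMUSG00000021079, chr12:71123173-71136684, GRCm38) had 12.1, 11.1, 11.9 and 11.4 CPM in MCT4-KO cells at 2% oxygen, against 28.4, 28.6, 27.8 and 30.5 CPM at 20%, and 11.0, 11.2, 10.4 and 12.6 CPM in control cells at 2%, against 32.6, 31.6, 35.0 and 29.3 CPM at 20%. Every library at 2% oxygen lay below every library at 20%, by -1.31 ± 0.062, adjusted p = 8.59e-14, in MCT4-KO and -1.51 ± 0.063, adjusted p = 7.68e-15, in control cells. Timm10 had 7.51, 6.26, 7.20 and 7.21 CPM in MCT4-KO cells at 2% oxygen, against 14.2, 13.4, 12.9 and 14.96 CPM at 20%, and 6.78, 6.35, 6.55 and 7.73 CPM in control cells at 2%, against 14.7, 17.3, 14.5 and 13.0 CPM at 20%. It separated as completely, by -0.97 ± 0.087 in MCT4-KO and -1.12 ± 0.088 in control cells, though its low level makes each value less precise. Timm8a1, which pairs with Timm13, fell (-0.40 ± 0.060 in MCT4-KO and -0.62 ± 0.062 in control cells), and so did Timm10b, which sits on the TIM22 complex (-0.50 ± 0.074 in MCT4-KO and -0.23 ± 0.073 in control cells). Timm8b, a close relative of Timm8a1, was the member that rose, by 0.61 ± 0.046 in MCT4-KO and 0.58 ± 0.046 in control cells. Timm13 was not called in either genotype, with -0.11 ± 0.067, adjusted p = 0.141, and -0.14 ± 0.068, adjusted p = 0.0710, and without control 2% replicate 4 its change in control cells was -0.22 (adjusted p = 0.00100).

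The promoters of 3 of the small Tim genes that fell, and that of Lonp1, which rose with low oxygen, share 1 short sequence, and they are shown for that reason, which was chosen after the values were seen. Windows from 250 bases before to 50 bases after the start were taken from RefSeq (GRCm38.p6) and were at hand for 31 of the 36 genes. They are printed on the gene's own strand in lower case, with CACGTG, a palindromic E box that many basic helix-loop-helix factors can bind, in capitals. Timm9 is at chr12:71136626-71136925 (minus strand), Timm10 at chr2:84826771-84827070 (plus strand), Timm8a1 at chrX:134541621-134541920 (minus strand) and Lonp1 at chr17:56626854-56627153 (minus strand).
Timm9: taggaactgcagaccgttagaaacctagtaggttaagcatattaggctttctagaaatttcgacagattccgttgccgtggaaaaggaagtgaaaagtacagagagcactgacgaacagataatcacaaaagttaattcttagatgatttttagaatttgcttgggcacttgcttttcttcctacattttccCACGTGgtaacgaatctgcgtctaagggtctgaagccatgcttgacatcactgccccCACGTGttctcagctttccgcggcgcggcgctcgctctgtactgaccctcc
Timm10: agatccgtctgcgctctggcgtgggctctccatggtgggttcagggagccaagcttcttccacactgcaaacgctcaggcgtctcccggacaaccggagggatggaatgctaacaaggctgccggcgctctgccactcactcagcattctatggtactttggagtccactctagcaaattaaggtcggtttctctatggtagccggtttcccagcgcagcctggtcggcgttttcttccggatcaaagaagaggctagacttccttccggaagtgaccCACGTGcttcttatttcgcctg
Timm8a1: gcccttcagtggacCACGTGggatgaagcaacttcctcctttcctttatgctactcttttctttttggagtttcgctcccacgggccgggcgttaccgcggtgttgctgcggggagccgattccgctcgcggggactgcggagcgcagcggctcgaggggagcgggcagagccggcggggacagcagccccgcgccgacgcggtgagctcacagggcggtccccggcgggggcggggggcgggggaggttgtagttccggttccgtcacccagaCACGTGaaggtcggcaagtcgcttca
Lonp1: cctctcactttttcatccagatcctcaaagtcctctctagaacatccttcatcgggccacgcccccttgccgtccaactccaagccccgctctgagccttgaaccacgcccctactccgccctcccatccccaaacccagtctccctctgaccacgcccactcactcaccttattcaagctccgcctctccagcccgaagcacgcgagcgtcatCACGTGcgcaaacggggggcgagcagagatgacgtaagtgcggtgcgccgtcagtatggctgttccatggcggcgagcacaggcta
Counted from the start as +1, the first base of the E box lies at -58 and -1 in Timm9, at +29 in Timm10, at -236 and +25 in Timm8a1 and at -36 in Lonp1. Tomm20 also held it, at -126. It was thus found in 5 of 31 windows (16.1%), against 8.09% of the 27025 genes with a window, and the 5 genes did not share a direction. The shorter ACGTG, which CACGTG contains, was found on either strand in 8 of 31 (25.8%), against 21.8% of all genes, the added genes being Clpx, Timm10b and Timmdc1. TGACGTCA was found in Trap1 alone, at -47 (3.23% of the members, 2.03% of all genes). The palindromic consensus of NRF1 and the letters TGATGCAAT were found in 0 of 31, against 1.07% and 0.222% of all genes. These are matches of letters, searched on both strands, and binding was not measured. The shares compare unlike sets, since all 36 genes had enough counts to be tested and the 27025 genes exceed the 13774 tested.

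With the knockout at 2% oxygen 1 of the 6 small Tim genes fell and 0 rose, against 19.1% and 19.4% of all tested genes. Timm10b had 24.0, 21.6, 25.1 and 23.7 CPM in MCT4-KO and 25.0, 28.8, 27.8 and 31.9 CPM in control cells, and the lowest control library overlapped the highest MCT4-KO library. It fell (-0.26 ± 0.076, adjusted p = 0.00942), and without control replicate 4 by 0.20 (adjusted p = 0.0426). It shares 376 exon bases on the same strand with the predicted gene Gm45799. That gene had a mean of 2.98 CPM in MCT4-KO and 1.23 CPM in control cells. With both summed, an alternative chosen after seeing the data, the change was -0.16 (adjusted p = 0.0526). Timm10b also shares 277 exon bases with Arfip2 on the opposite strand (group means of 31.2 to 34.6 CPM). Its counts are thus uncertain if strand was not used. Timm8a1 had 42.0, 41.1, 39.8 and 37.1 CPM in MCT4-KO and 33.7, 34.4, 33.3 and 42.0 CPM in control cells at 2% oxygen, and its change was 0.16 ± 0.063, adjusted p = 0.0544. Control replicate 4 again lay above its group, and without it the change was 0.24 (adjusted p = 0.000894).

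Of the 8 inner membrane genes 2 rose and 5 fell with low oxygen in each genotype. Over all tested genes 37.7% rose and 38.7% fell in MCT4-KO cells, and 38.7% and 39.6% in control cells. With the knockout at 2% oxygen 4 of the 8 rose and 1 fell, against 19.4% and 19.1% of all tested genes. Timm23, the channel of the presequence translocase, had 160.4, 151, 154 and 150.3 CPM in MCT4-KO and 129.6, 136, 134 and 143 CPM in control cells at 2% oxygen, and 197, 197, 206 and 201 CPM in MCT4-KO and 215, 225, 199.8 and 202 CPM in control cells at 20%. It fell with low oxygen (-0.38 ± 0.040 in MCT4-KO and -0.63 ± 0.040 in control cells). At 2% oxygen all MCT4-KO libraries lay above all control libraries, by 0.18 ± 0.040, adjusted p = 0.00129. Of 6 genes that match Timm23, the 5 in the count table held 0.511% of the summed counts. Timm50, the receptor that hands presequences to the channel, had 65.2, 64.6, 63.0 and 63.7 CPM in MCT4-KO and 53.7, 53.5, 58.9 and 54.2 CPM in control cells at 2% oxygen. All MCT4-KO libraries were higher, by 0.22 ± 0.039, adjusted p = 1.89e-04, and at 20% oxygen its change was 0.08 ± 0.038, adjusted p = 0.237. With low oxygen Timm50 fell (-0.11 ± 0.038 in MCT4-KO and -0.25 ± 0.039 in control cells).

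Timmdc1, a relative of the Tim17 family that serves the assembly of respiratory complex I, had 21.9, 20.1, 21.2 and 21.1 CPM in MCT4-KO and 17.7, 17.8, 18.5 and 18.8 CPM in control cells at 2% oxygen. The groups did not overlap, and the rise was 0.21 ± 0.049, adjusted p = 0.00192. Its change with low oxygen was -0.29 ± 0.046 in MCT4-KO and -0.58 ± 0.048 in control cells. The alternative TIM23 subunits Timm17a and Timm17b both rose with low oxygen, Timm17a by 0.46 ± 0.038 in MCT4-KO and 0.16 ± 0.039 in control cells (-0.048 in control cells with library size scaling) and Timm17b by 0.47 ± 0.051 and 0.63 ± 0.051. At 2% oxygen they differed between the genotypes in opposite directions. Timm17a had 54.9, 50.8, 54.7 and 52.7 CPM in MCT4-KO and 42.5, 44.6, 45.4 and 44.1 CPM in control cells, a rise of 0.27 ± 0.038, adjusted p = 1.53e-05. Timm17b had 64.7, 61.4, 63.1 and 61.6 CPM in MCT4-KO and 70.4, 66.9, 69.0 and 76.7 CPM in control cells, a change of -0.17 ± 0.050, adjusted p = 0.00951, and of -0.13 (adjusted p = 0.0352) without control replicate 4. Both pairs of groups were free of overlap. Timm21, which links the TOM and TIM23 complexes, and Timm22, the channel for carrier proteins, fell with low oxygen, Timm21 with -0.28 in MCT4-KO and -0.20 in control cells and Timm22 with -0.18 and -0.16. Timm29, a partner of Timm22, was not called for oxygen (-0.05 ± 0.034 in MCT4-KO and 0.02 ± 0.034 in control cells). At 20% oxygen it had 67.03, 65.8, 65.5 and 65.5 CPM in MCT4-KO and 64.6, 62.3, 61.1 and 59.8 CPM in control cells, a difference of 0.09 ± 0.034, adjusted p = 0.0999.

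In the import motor mortalin was the gene that changed with the knockout, and it also fell with low oxygen. Hspa9 (ENSMUSG00000024359, on chromosome 18) encodes the Hsp70 of the matrix, which binds the incoming chain and also folds finished proteins. It had 746, 719.6, 759.7 and 739.9 CPM in MCT4-KO cells and 548, 616, 570.1 and 599 CPM in control cells at 2% oxygen, and 1338, 1275, 1234 and 1280.3 CPM in MCT4-KO and 1361, 1386, 1355 and 1314 CPM in control cells at 20%. The 2 oxygen levels were far apart, and at 2% oxygen all MCT4-KO libraries lay above all control libraries. Its change with low oxygen was -0.79 ± 0.036, adjusted p = 5.45e-14, in MCT4-KO and -1.22 ± 0.037, adjusted p = 4.29e-17, in control cells. The knockout raised it at 2% oxygen by 0.35 ± 0.036, adjusted p = 5.79e-07, which is 1.27-fold, and by 0.36 without control replicate 4. At 20% oxygen the knockout value was -0.08 ± 0.036, adjusted p = 0.191.

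Timm44, which anchors mortalin to the channel, fell with low oxygen (-0.23 ± 0.044, adjusted p = 6.65e-05, in MCT4-KO and -0.11 ± 0.044, adjusted p = 0.0266, in control cells). The call in control cells was lost without control 20% replicate 1 or 2, or control 2% replicate 1 or 2 (adjusted p = 0.0733 to 0.102). The nucleotide exchange factors of mortalin differed: Grpel2 fell (-0.58 ± 0.055 in MCT4-KO and -0.56 ± 0.055 in control cells), and Grpel1 stood at 0.03 ± 0.044, adjusted p = 0.526, in MCT4-KO (-0.15 with library size scaling) and -0.10 ± 0.044, adjusted p = 0.0550, in control cells. Without control 2% replicate 4, or without control 20% replicate 3 or 4, Grpel1 was called lower in control cells (-0.12 each, adjusted p = 0.0174 to 0.0284). Dnajc19, a J-domain protein of the motor, fell in control cells (-0.21 ± 0.063, adjusted p = 0.00482). In MCT4-KO cells it stood at -0.07 ± 0.063, adjusted p = 0.291 (-0.25 with library size scaling), and its interaction was not called. Dnajc19 shares 178 exon bases with Fxr1 on the opposite strand, which had 150 to 182 CPM in the group means, so its counts are uncertain if strand was not used. The same holds for Grpel1, which shares 411 exon bases with Tada2b on the opposite strand (group means of 11.6 to 27.3 CPM). With the knockout at 2% oxygen none of Timm44, Grpel1, Grpel2, Pam16 and Dnajc19 was called, with changes between -0.06 for Grpel2 and 0.08 for Grpel1.

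Pam16, the J-like partner of Dnajc19 in the motor, is uncertain because it and the predicted gene Gm9803 share 534 identical bases. Gm9803 held 67.9% of the counts of both. Pam16 alone had 2.39, 9.50, 7.65 and 11.0 CPM in MCT4-KO and 7.54, 7.79, 8.98 and 7.61 CPM in control cells at 20% oxygen, with MCT4-KO replicate 1 far below the rest. Its rise with low oxygen was 0.66 ± 0.23, adjusted p = 0.0144, in MCT4-KO and 0.57 ± 0.24, adjusted p = 0.0347, in control cells, and the second call was lost in 5 of the fits that left out 1 library. With both genes summed, an alternative chosen after seeing the data, the spread shrank: the rise was 0.54 (adjusted p = 8.87e-07) in MCT4-KO and 0.70 (adjusted p = 1.97e-08) in control cells. The knockout change at 2% oxygen turned with the sum, at -0.18 (adjusted p = 0.0472) in place of 0.06 ± 0.23, adjusted p = 0.864. Control 2% replicate 4 was the highest library of the sum, at 46.9 CPM, against 34.5 to 38.3 CPM in the other libraries at 2% oxygen. Timm8a1 likewise shares sequence with Gm9797, which held 25.3% of the counts of both. Summed, its knockout change at 2% oxygen was 0.14 (adjusted p = 0.0329) and its interaction 0.21 (adjusted p = 0.0413).

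**Figure D4:**
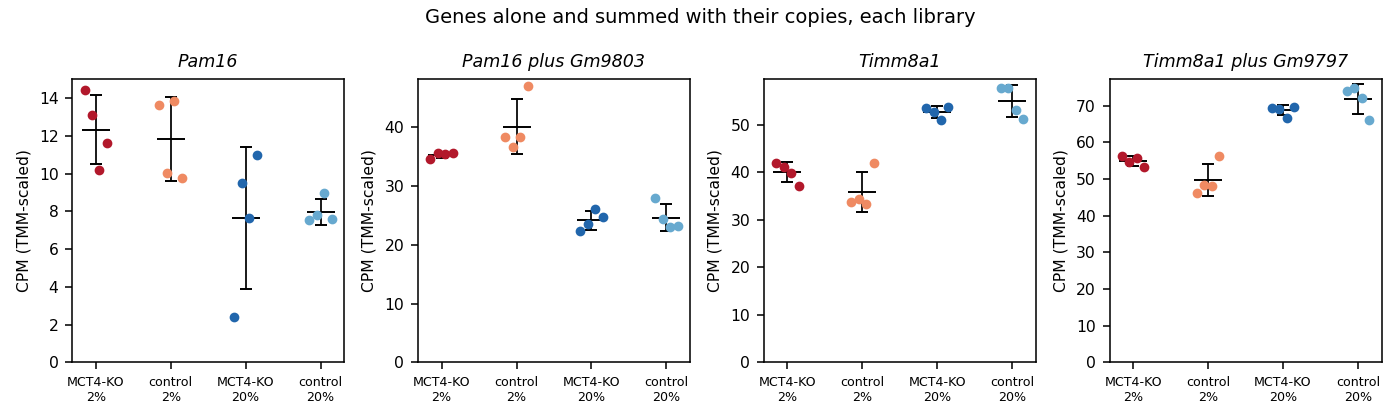
TMM-scaled CPM of Pam16 and Timm8a1 alone and summed with the near-identical genes Gm9803 and Gm9797, per library with mean and SD, n = 4 per group. The MCT4-KO 20% library at 2.39 CPM for Pam16 alone lies with its group once Gm9803 is added.

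Of the 6 peptidase, protease and matrix chaperone genes 3 rose and 1 fell with low oxygen in MCT4-KO cells, and 3 rose and 2 fell in control cells. The shares of all tested genes were 37.7% and 38.7% in MCT4-KO cells, and 38.7% and 39.6% in control cells. With the knockout at 2% oxygen 3 of the 6 rose and 0 fell, against 19.4% and 19.1% of all tested genes. Lonp1 (ENSMUSG00000041168, chr17:56614297-56626887, GRCm38), the main ATP-dependent protease of the matrix, had 318, 311, 311 and 319.8 CPM in MCT4-KO cells at 2% oxygen, against 192, 183, 183 and 183 CPM at 20%, and 298, 316, 318 and 339 CPM in control cells at 2%, against 173, 193, 185 and 182 CPM at 20%. Every library at 2% oxygen was above every library at 20%, by 0.77 ± 0.039, adjusted p = 2.58e-13, in MCT4-KO and 0.79 ± 0.039, adjusted p = 1.16e-13, in control cells, and the knockout value was -0.01 ± 0.038, adjusted p = 0.819, at 2% oxygen. Trap1, the Hsp90 of the matrix, rose with low oxygen by 0.56 ± 0.033 in MCT4-KO and 0.56 ± 0.033 in control cells. With the knockout it had 190.2, 192, 189 and 188 CPM in MCT4-KO and 179, 178, 179 and 169 CPM in control cells at 2% oxygen, a rise of 0.10 ± 0.033, adjusted p = 0.0164. At 20% oxygen the difference was as large but not called (0.10 ± 0.033, adjusted p = 0.0677). There Trap1 had 122, 129, 131 and 131 CPM in MCT4-KO and 119, 124, 114 and 123 CPM in control cells. Without control 2% replicate 4, its low library, the rise of Trap1 at 2% oxygen was 0.085 (adjusted p = 0.0425).

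In 2 enzymes 1 subunit was called with the knockout at 2% oxygen and its partner was not, and the difference between the subunits was not tested. Pmpca and Pmpcb are the alpha and beta subunits of the presequence peptidase. Pmpca had 139.99, 142, 147 and 151 CPM in MCT4-KO and 117, 122, 120.1 and 118 CPM in control cells at 2% oxygen. The groups did not overlap, and the rise was 0.28 ± 0.034, adjusted p = 2.88e-06. Pmpca shares 874 exon bases with Inpp5e on the opposite strand, which had 20.1 to 24.5 CPM in the group means. The counts of Pmpca are thus uncertain if strand was not used. Pmpcb, the catalytic subunit, had 49.3, 50.1, 49.2 and 46.8 CPM in MCT4-KO and 46.7, 47.1, 51.6 and 52.2 CPM in control cells, with -0.02 ± 0.044, adjusted p = 0.805. With low oxygen Pmpca rose by 0.37 ± 0.034 in MCT4-KO and 0.10 ± 0.034 in control cells (-0.10 in control cells with library size scaling), and Pmpcb fell (-0.26 ± 0.043 in MCT4-KO and -0.24 ± 0.043 in control cells). Clpp is the protease chamber of ClpXP and Clpx its unfolding ring. Clpp had 43.7, 44.1, 44.0 and 45.6 CPM in MCT4-KO and 35.7, 34.8, 37.1 and 39.4 CPM in control cells at 2% oxygen. All MCT4-KO libraries lay higher, by 0.27 ± 0.056, adjusted p = 7.74e-04, while Clpx stood at -0.02 ± 0.042, adjusted p = 0.726. Clpp fell with low oxygen in control cells (-0.40 ± 0.056, adjusted p = 1.41e-06). In MCT4-KO cells it stood at -0.06 ± 0.054, adjusted p = 0.363 (-0.23 with library size scaling). Clpx was called in none of the comparisons with TMM, with means of 34.3 CPM in MCT4-KO and 34.8 CPM in control cells at 2% oxygen, and 35.4 CPM in MCT4-KO and 34.2 CPM in control cells at 20%. With library size scaling it was called lower with low oxygen (-0.22 in MCT4-KO and -0.18 in control cells).

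The ratio of related genes within a library does not carry its scaling factor, apart from the pseudocount of 0.5 CPM, and shows unequal change, not which gene moved. Ratios were compared for 4 pairs in 4 comparisons over 4 and 4 libraries with exact permutation, two-sided, whose smallest p is 0.0286. Adjusted over the 16 tests that p became 0.0457, a value that depends on how many of the tests reached it. The log2 ratio of Timm17a over Timm17b averaged -0.23 ± 0.03 in MCT4-KO and -0.67 ± 0.10 in control cells at 2% oxygen (SD, n = 4 each), a difference of 0.44 ± 0.05 (SE, exact permutation p = 0.0286, adjusted p = 0.0457). At 20% oxygen it averaged -0.21 ± 0.07 in MCT4-KO and -0.20 ± 0.07 in control cells (exact permutation p = 0.857, adjusted p = 0.886). The ratio thus differed with oxygen in control cells, by -0.47 ± 0.06 (exact permutation p = 0.0286, adjusted p = 0.0457), and in MCT4-KO cells its change was -0.02 ± 0.04 (exact permutation p = 0.629, adjusted p = 0.774).

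Tomm40 over Tomm40l averaged 1.80 ± 0.03 in MCT4-KO and 1.39 ± 0.07 in control cells at 2% oxygen, a difference of 0.41 ± 0.04. With low oxygen it rose by 0.21 ± 0.04 in MCT4-KO cells and fell by 0.23 ± 0.07 in control cells, each with no overlap and at the smallest p the exact permutation test can give. Grpel1 over Grpel2 rose with low oxygen by 0.60 ± 0.06 in MCT4-KO and 0.45 ± 0.06 in control cells, and with the knockout at 2% oxygen by 0.14 ± 0.05, again at that p. Timm8a1 over Timm8b changed by -0.999 ± 0.06 with low oxygen in MCT4-KO and -1.18 ± 0.06 in control cells, with the reads of Gm9797 not added. Its knockout difference at 2% oxygen was 0.21 ± 0.08 (exact permutation p = 0.0571, adjusted p = 0.0831). At 20% oxygen none of the 4 pairs differed by genotype, with adjusted p of 0.762 to 0.886.

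**Figure D5:**
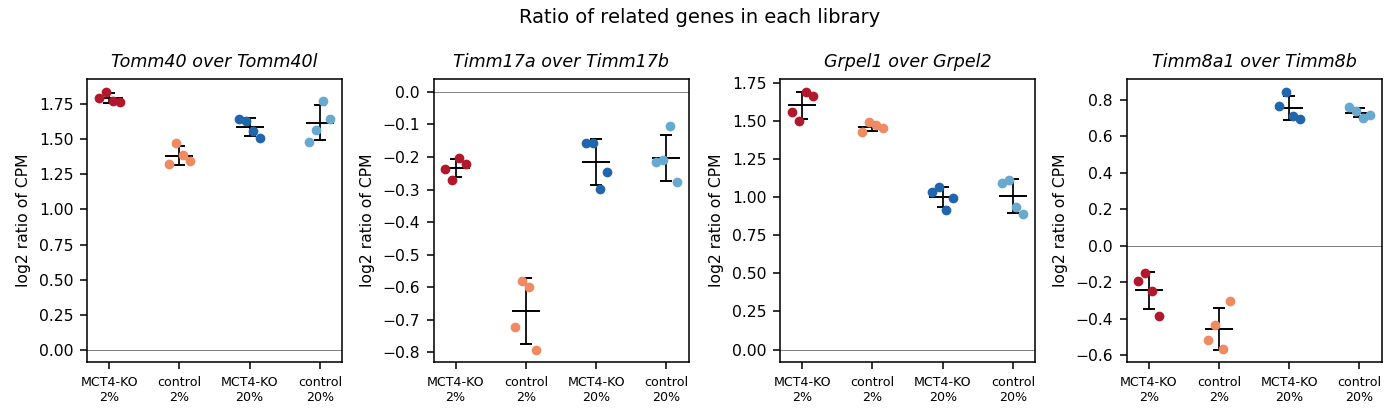
Log2 ratio of CPM for 4 pairs of related genes in each library (points) with mean and SD, n = 4 per group. The Timm17a over Timm17b ratio of the control libraries at 2% oxygen, -0.58 to -0.79, lies below that of all other libraries.

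Other genes of the pathway were counted from 3 lists. Of all tested genes 19.4% rose and 19.1% fell with the knockout at 2% oxygen, 37.7% rose and 38.7% fell with low oxygen in MCT4-KO cells, and 38.7% rose and 39.6% fell in control cells. Of 16 other import and insertion genes 14 were tested (Tomm20l and Timm8a2 were not), and at 2% oxygen the knockout raised 7 and lowered 1, with a median of 0.10. Dnajc11, an outer membrane J-domain protein, rose by 0.31 ± 0.042, Dnajc15, a J-domain protein of the motor, by 0.33 ± 0.048 and Mtch2, an outer membrane insertase, by 0.22 ± 0.038. With low oxygen 6 rose and 6 fell in MCT4-KO cells, and 6 rose and 8 fell in control cells. The matrix J-domain protein Dnaja3 fell (-0.77 ± 0.042 in MCT4-KO and -1.03 ± 0.042 in control cells). Chchd4, which traps small cysteine-rich proteins such as the small Tims in the intermembrane space, fell too (-0.61 ± 0.047 in MCT4-KO and -0.89 ± 0.047 in control cells), and so did its oxidase Gfer in MCT4-KO cells (-0.52 ± 0.044). Mtx3, a metaxin of the outer membrane, fell in control cells (-1.62 ± 0.12). Gfer and Mtx3 appear for 1 genotype each because at most 3 genes per comparison are named. In control cells all 14 tested genes were called, Gfer among them. The interaction was called for 9 of the 14, 7 above 0 and 2 below, against 11.6% and 11.3% of all tested genes.

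Of 13 other proteases and peptidases the knockout at 2% oxygen raised 4 and lowered 2, with a median of 0.03. Pitrm1, which degrades cleaved presequences, rose by 0.36 ± 0.048, while the inner membrane peptidase subunits Immp1l (-0.56 ± 0.084) and Immp2l (-0.43 ± 0.095) fell. Immp2l lies on chromosome 12, where the median knockout change at 2% oxygen was -0.08. With low oxygen 5 rose and 5 fell in MCT4-KO and 6 rose and 5 fell in control cells. Afg3l2 and Afg3l1, subunits of the inner membrane AAA protease, had the smallest adjusted p of this list in both genotypes. Afg3l2 rose by 1.01 ± 0.029 in MCT4-KO cells. Afg3l1 rose by 0.65 ± 0.031 in MCT4-KO and 0.62 ± 0.031 in control cells. In control cells Afg3l2 rose too, with 162 ± 3.67 CPM at 2% and 81.1 ± 1.79 CPM at 20% oxygen (SD, n = 4 each). Afg3l2 had 158, 159.9, 162 and 165 CPM in MCT4-KO cells at 2% oxygen, against 80.1, 80.3, 80.4 and 78.5 CPM at 20%, with a wide gap between the groups.

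Of 8 matrix folding and quality control genes the knockout at 2% oxygen raised 6 and lowered 1, with a median of 0.15. Hspd1, the Hsp60 chaperonin, had 469.6, 453, 472 and 448 CPM in MCT4-KO and 346, 368, 342 and 362 CPM in control cells at 2% oxygen. The groups did not overlap, and the rise was 0.38 ± 0.047, adjusted p = 3.88e-06. Ddit3, a stress-induced transcription factor, rose by 0.39 ± 0.073. Atf5, a transcription factor of the mitochondrial stress response, went the other way, with 65.2, 60.3, 57.3 and 63.1 CPM in MCT4-KO and 78.0, 96.1, 81.6 and 94.7 CPM in control cells at 2% oxygen, a change of -0.51 ± 0.061, adjusted p = 2.41e-06. At 20% oxygen it was the 1 gene of the 3 lists that was called, with 463, 429, 425 and 449 CPM in MCT4-KO and 515, 563, 544 and 513 CPM in control cells (-0.27 ± 0.054, adjusted p = 0.00265). Atf5 fell with low oxygen (-2.85 ± 0.061 in MCT4-KO and -2.61 ± 0.059 in control cells), and Ddit3 did too (-1.84 ± 0.063 in MCT4-KO and -2.28 ± 0.065 in control cells). Over all 8 genes 3 rose and 5 fell with low oxygen in each genotype.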

How the data were processed

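The authors deposited 1 table of expected counts per gene, per the submitters' processing notes made with HISAT2 and RSEM on mm10; versions, annotation release and strand setting were not given in the sources used here. Per the labels' protocols, RNA was poly(A)-selected. Of the deposited expected counts 10.1% were not whole, and they were rounded. Symbols and exon lengths came from GENCODE release M21 (53706 of 53801 identifiers matched, and the other 95 held 0.0103% of counts), promoters from RefSeq.

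edgeR 4.0.16 (R 4.3.3) was run on all 16 libraries with filterByExpr (99.9% of counts kept), TMM factors, a mean per group and the quasi-likelihood F-test, which left 12 residual degrees of freedom and a biological coefficient of variation of 4.61%. Benjamini-Hochberg adjustment ran over all 13774 tested genes, and SE is the change divided by the root of F. The script was tested on simulated data for the knockout comparison at 20% oxygen. It recovered 61.25% of 80 genes changed 1.2-fold, 66.25% of 80 changed 1.5-fold and 95% of 40 changed 2-fold. Of its calls there 6.04% were false. Alternatives were DESeq2 1.42.0 size factors and Wald test, library size scaling, no filter, 1 CPM in 8 libraries, limma-voom 3.58.1, fits of the compared groups, a replicate block, each library left out, a pseudocount of 2 for ratios and, chosen after seeing the data, near-identical copies (at least 95% identity over 200.0 bases) or same-strand overlapping genes summed. Ratios were tested with scipy 1.17.1 (Python 3.11.15). Replicate numbers recur in all groups without a stated meaning, and same-numbered libraries did not deviate together (correlations of -0.064 to 0.12 over 24 pairs), so they were not paired.

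The 36 genes, the other lists and the tests were chosen with earlier results of these data known. All 36 are named, and of each other list at most 3 called genes per comparison with the smallest adjusted p. The interaction is also given where it passed for a gene so named in another comparison. Depth was 21192179 to 28871459 counts per library, and counting error is included in the edgeR spread.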

Additional observations from a re-analysis of the deposited data

Results flagged for a closer look

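In the edgeR interaction test 22.2% of the 36 genes were called, near the 22.9% of all tested genes. The knockout effect at 2% minus that at 20% oxygen differed from 0 for 8 of the 36. It was 0.42 for Hspa9 (adjusted p = 1.63e-05), 0.35 for Clpp (0.00312), 0.30 for Timm17a (5.22e-04), 0.29 for Timmdc1 (0.00337), 0.27 for Pmpca (5.17e-04), 0.25 for Timm23 (0.00291), 0.24 for Tomm40 (0.00229) and 0.15 for Samm50 (0.0468), on the log2 scale. Among named genes of the other lists it was 0.59 for Mtx3, 0.44 for Ddit3, 0.38 for Dnajc15, 0.36 for Hspd1, 0.30 for Parl, 0.30 for Pitrm1, 0.29 for Dnajc11, 0.28 for Chchd4, 0.26 for Dnaja3, 0.23 for Clpb, 0.22 for Mtch2 and 0.18 for Phb. It was below 0 for Immp1l (-0.56), Mtch1 (-0.34) and Atf5 (-0.24), and all of these adjusted p lay between 4.15e-04 and 0.0404.

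Of 232 groups of 4 libraries 15 had 1 library far from the other 3, where chance flags about 1 in 20. Control 2% replicate 4 was such a library for Tomm6 (219 CPM), Timm8a1 (42.0 CPM), Timm29 (66.2 CPM) and, on the low side, Trap1 (169 CPM). Control 2% replicate 3 stood high for Timm50 (58.9 CPM) and replicate 2 low for Afg3l1 (200.4 CPM). In MCT4-KO cells at 2% oxygen replicate 1 stood high for Tomm40 (161 CPM), replicate 3 high for Clpb (81.7 CPM) and replicate 4 low for Tomm34 (43.5 CPM). In MCT4-KO cells at 20% oxygen replicate 1 stood high for Lonp1 (192 CPM) and Pitrm1 (99.8 CPM) and low for Tomm6 (68.1 CPM). There replicate 2 stood low for Tomm70a (205 CPM) and replicate 4 high for Tomm5 (62.5 CPM) and low for Lactb (29.8 CPM).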

How the results depend on the processing

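Of the 36 genes 0 were called higher with the knockout at 20% oxygen, against 2 with library size scaling (Timm29 and Trap1), 1 with the DESeq2 Wald test (Trap1) and 0 to 1 without 1 library, where 0 to 1 were called lower. At 2% oxygen 4 were called lower, against 2 with library size scaling and 2 to 4 without 1 library. For the interaction 0 were below 0, against 1 without a filter (Timm10b) and 0 to 2 without 1 library. Without 1 library the genes called of all tested numbered 895 to 1321 for the knockout at 20% oxygen, 4573 to 5099 at 2% oxygen, 10224 to 10346 for oxygen in MCT4-KO, 10594 to 10691 in control cells and 2635 to 3339 for the interaction. The sign turned with library size scaling in MCT4-KO cells at 2% against 20% oxygen for Tomm40l (-0.043), Samm50 (-0.076) and Grpel1 (-0.15), and in control cells for Tomm40 (-0.10), Timm17a (-0.048), Timm29 (-0.18), Pmpca (-0.10) and Clpx (-0.18). These turns follow from the factors, since that scaling moves all values of an oxygen comparison down. With copies summed, Pam16 at 2% oxygen turned to -0.18. With the replicate block, the samples sharing only a number, 1059 genes were called for the knockout at 20% and 4984 at 2% oxygen, 10418 and 10706 for oxygen in MCT4-KO and control cells and 2781 for the interaction. The block ended the calls of Tomm34 at 2% oxygen (adjusted p = 0.0518), Pam16 in control cells (0.0518) and Samm50 in the interaction (0.0834), and no other call of the 36 genes changed under it. Timm10, at 6.85 CPM in control cells at 2% oxygen, had the lowest mean of the 36 genes, and the SE of its knockout change there was 0.099. The cause of the other differences was not tested.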

Other observations

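Single libraries ran high or low over many of the 36 genes at once. Control 2% replicate 4 was the highest of its group for 29 of 36 and the lowest for 2, against 33.7% and 32.7% of all tested genes, and control 2% replicate 1 was the lowest for 21, against 26.9%. MCT4-KO 2% replicate 1 was the highest for 19 (27.5%) and MCT4-KO 20% replicate 1 the lowest for 19 (29.5%).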
